A study of Mus musculus with 2 samples.

Results

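Across single-cell libraries from diabetic and control mouse retinas, 5377 of 19562 cells (27.5%, 95% interval 26.9 to 28.1%) had more than 20% of their unique molecular identifiers (UMIs, one per captured RNA molecule) on genes of the mitochondrial genome. These cells were chosen by that share alone, summed over the 13 mitochondrial protein-coding genes of the table. They were 3533 of 12393 cells (28.5%, 27.7 to 29.3%) in the streptozotocin (STZ) library and 1844 of 7169 cells (25.7%, 24.7 to 26.8%) in the control library. Each cell was given a retinal class by clustering on the genes outside the mitochondrial genome and by marker genes, and cells over 20% were set against cells of the same class and library at 10 to 20%. The mitochondrial share and the counts it is made from are therefore a description of the choice, not a finding.

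The mitochondrial genome encodes core subunits of respiratory complexes I, III, IV and V, while most of the respiratory chain, the mitochondrial ribosome and the import machinery are nuclear-encoded. Photoreceptors pack mitochondria into the inner segment, and rod bipolar cells, cone bipolar cells and Müller glia carry light signals onward or support the neurons around them. In single-cell libraries a high mitochondrial share is widely used to leave out damaged cells. It is also found in intact cells rich in mitochondria.

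Both groups were male C57BL/6 mice, and dissociated retinas were captured with 10x Chromium 3′ version 3 chemistry. The STZ group received intraperitoneal STZ, a toxin of insulin-producing beta cells, at 55 mg/kg between 3 and 5 weeks of age. Diabetes was taken as glucose over 300 mg/dL, and retinas were collected after 25 weeks. The control group was untreated. Each library pooled 3 retinas, and there was 1 library per group, so treatment and library cannot be told apart. No test across animals was possible. The intervals given are 95% counting intervals over UMIs or cells, cover counting error only, and treat neither cells nor genes as replicates. The deposited table lists 17087 genes, every cell has at least 499 UMIs, and none has more than 2999 genes. The STZ and control libraries shared 21 cell barcodes, and 10 cells over 20% carried one.

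Cells over 20% had a median of 26.0% mitochondrial UMIs in the STZ library (quartiles 22.3 and 34.9%, highest 92.0%) and 30.8% in the control library (24.3 and 42.2%, highest 88.6%). In the STZ library 1595 lay at 20 to 25%, 664 at 25 to 30%, 727 at 30 to 40%, 409 at 40 to 50% and 138 above 50%. In the control library the same ranges held 514, 363, 439, 286 and 242 cells. The STZ cells thus lay closer to the 20% limit, and the control cells reached further above it. Just inside the limit, at 20 to 21%, 446 STZ cells had a median of 993.5 UMIs outside the mitochondrial genes and 130 control cells had 2281.5. Just outside, at 19 to 20%, 470 STZ cells had a median of 975 and 148 control cells had 3540. No gap separated the ranges.

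Of the 5377 cells, 4414 (82.1%) fell into rod-like, cone-like, rod bipolar-like, cone bipolar-like or Müller glia-like clusters. A further 285 (5.3%) were in other named classes and 678 (12.6%) in unnamed clusters. Rod bipolar-like cells made up 29.3% of the STZ cells over 20% and 31.9% of the control ones. Cone-like cells were 19.5% in STZ and 32.3% in control, and cone bipolar-like cells were 13.6% and 17.0%. Rod-like cells were 8.41% in STZ and 6.13% in control, and Müller glia-like cells were 6.17% and 4.39%. Unnamed clusters held 16.4% of the STZ cells over 20%, against 5.37% of the control ones, and 469 of the STZ cells were in a single cluster with no leading marker of any class.

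Among the 5 classes, the share over 20% was highest in rod bipolar-like cells of the STZ library and lowest in Müller glia-like cells of the control library. Rod bipolar-like cells passed 20% in 1036 of 1900 cells in STZ (54.5%, 52.3 to 56.8%) and in 589 of 1507 in control (39.1%, 36.6 to 41.6%). Cone-like cells did so in 690 of 1606 in STZ (43.0%, 40.5 to 45.4%) and 595 of 1375 in control (43.3%, 40.6 to 45.9%). For cone bipolar-like cells it was 481 of 1998 in STZ (24.1%, 22.2 to 26.0%) and 314 of 1429 in control (22.0%, 19.9 to 24.2%). For rod-like cells it was 297 of 1317 in STZ (22.6%, 20.3 to 24.9%) and 113 of 753 in control (15.01%, 12.5 to 17.8%). For Müller glia-like cells it was 218 of 1690 in STZ (12.9%, 11.3 to 14.6%) and 81 of 1293 in control (6.26%, 5.01 to 7.73%). These shares describe 2 libraries and the value by which cells were chosen, and no difference between STZ and control retinas was tested. They moved with depth. Among cells of at least 1000 UMIs the shares in STZ and control were 10.1 and 6.96% for rod-like cells and 13.8 and 14.0% for cone bipolar-like cells, with the order of the libraries turned in the second class. Müller glia-like cells had 8.74% in STZ under that limit, and 19.1 and 10.1% with clusters at resolution 0.5.

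**Figure D1:**
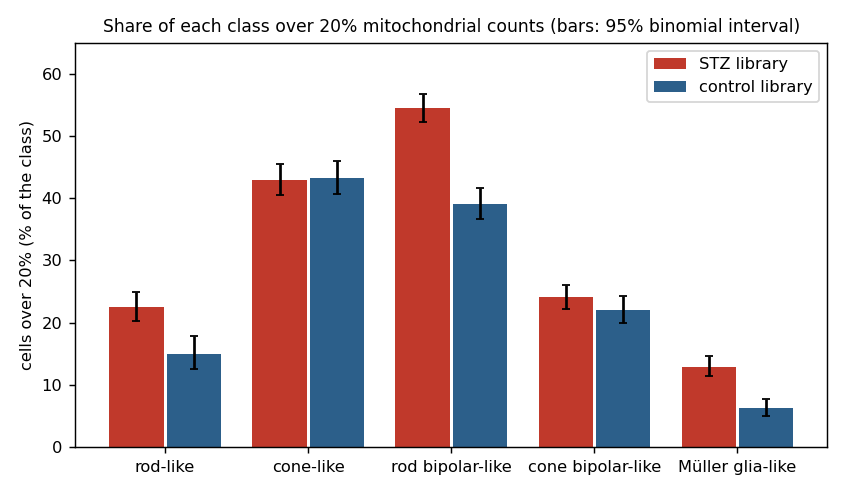
Share of cells over 20% mitochondrial counts (y axis, % of the class) in each retinal class (x axis) in the STZ and control libraries, with 95% binomial intervals. Rod bipolar-like cells stand at 54.5% in STZ and 39.1% in control, and Müller glia-like cells at 12.9% and 6.26%.

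Smaller classes also held such cells. Amacrine-like cells passed 20% in 71 of 315 cells in STZ (22.5%, 18.0 to 27.6%) and 25 of 81 in control (30.9%, 21.1 to 42.1%). Endothelial-like cells did so in 85 of 532 in STZ (16.0%, 12.97 to 19.4%) and 6 of 104 in control (5.77%, 2.15 to 12.1%). Assigning cells by a marker gate, with no clustering, gave 49.8% in STZ and 37.3% in control for rod bipolar cells. It gave 37.7 and 38.6% for cones, 25.6 and 19.6% for rods, 13.5 and 11.8% for cone bipolar cells, and 17.9 and 10.2% for Müller glia, again STZ and then control. Among cells over 20% that had a class by both ways, 3297 of 3576 (92.2%) had the same one.

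Cells over 20% had fewer UMIs outside the mitochondrial genes than cells at 10 to 20% in every class of both libraries, while mitochondrial UMIs were higher in some classes and lower in others. Cone-like cells over 20% had a median of 1206 other UMIs in STZ, against 4091 at 10 to 20% (3.39-fold lower), with mitochondrial medians of 696.5 and 698. In control they had 1126 against 4758 (4.23-fold lower), with mitochondrial medians of 713 and 753. Cone bipolar-like cells had the same form, at 966 against 3178.5 in STZ and 1057 against 3167 in control, with 457 against 472 and 447 against 449 mitochondrial UMIs. In these classes the higher share went with fewer other UMIs and with nearly equal mitochondrial UMIs.

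Rod bipolar-like cells differed in both counts. Their mitochondrial median was 1038 over 20% against 702 at 10 to 20% in STZ (1.479-fold) and 1059 against 675 in control (1.57-fold). Their other UMIs were 2651.5 against 3741.5 in STZ (1.41-fold lower) and 1600 against 4020.5 in control (2.51-fold lower). Rod-like cells were the shallowest, with 531 other UMIs over 20% against 1036 at 10 to 20% in STZ and 662 against 1365.5 in control. Müller glia-like cells had 849.5 against 1332 in STZ and 1956 against 5431.5 in control. Inside cluster 8, which held most of those over 20%, it was 746 against 731.5 in STZ and 1612.5 against 1038 in control. In STZ but not in control, rod-like cluster 7 (1736 against 1340) and rod bipolar-like cluster 12 (1014 against 877) also had more over 20%. The other clusters compared had fewer over 20% in both libraries. The number of different genes per cell, with each cell thinned to 500 UMIs, was close in both ranges. It was 391 over 20% against 370 at 10 to 20% in STZ rod-like cells, 408 against 403 in STZ cone-like cells and 412 against 417 in STZ cone bipolar-like cells.

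**Figure D2:**
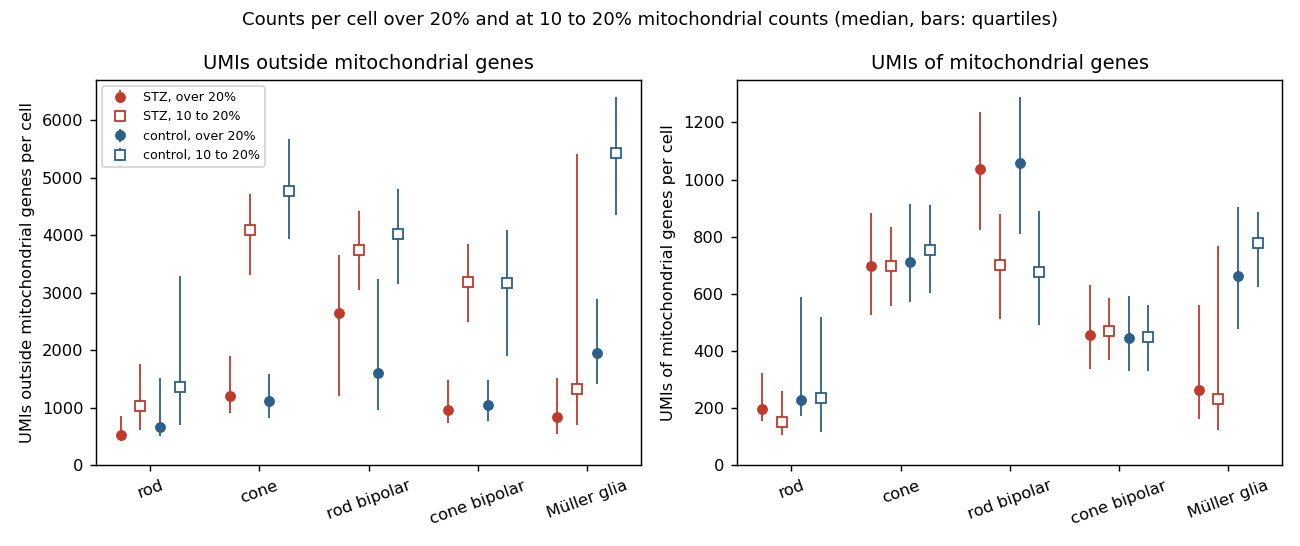
Median UMIs per cell outside the mitochondrial genes (left) and of mitochondrial genes (right) for each class, library and range, with bars for the quartiles. Cone-like and cone bipolar-like cells over 20% sit far below those at 10 to 20% on the left and level with them on the right, while rod bipolar-like cells over 20% stand higher on the right (1038 against 702 in STZ).

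The makeup of the mitochondrial UMIs differed little between the ranges. The share of mt-Co2, a core subunit of cytochrome c oxidase, was higher over 20% in all 10 pairs of class and library, by 0.01 to 0.14 on the log2 scale. The shares of mt-Atp8, a small ATP synthase subunit, and mt-Nd5, a complex I subunit, were lower in all 10, by log2 differences of -0.37 to -0.03 and -0.25 to -0.01. The share of mt-Co1, which encodes the catalytic subunit of cytochrome c oxidase, was higher in 4 of the 10 (-0.13 to 0.14), that of mt-Nd4 in 7 (-0.07 to 0.04) and that of mt-Atp6 in 6 (-0.07 to 0.07). Among cells over 20%, mt-Co1 took 17.7% of mitochondrial UMIs in STZ and 16.5% in control, and mt-Atp6 took 17.8 and 17.2%. mt-Nd4 took 5.27% in STZ and 6.63% in control, and mt-Nd5 took 1.12% and 1.47%.

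For the genes outside the mitochondrial genome, UMIs were summed over the cells of a class, library and range and scaled to CPM, each gene's UMIs relative to a common total with the mitochondrial genes left out. A gene was measured at 10 CPM over both ranges and libraries of the class pooled, and 50 UMIs in each library with ranges summed. It was counted as higher or lower at 1.5-fold or more in the same direction in both libraries. No p-value stands behind these counts. Cone-like cells over 20% had 949 of 7666 measured genes higher (12.4%) and 182 lower (2.37%) than cone-like cells at 10 to 20%. Cone bipolar-like cells had 623 of 6001 higher (10.4%) and 496 lower (8.27%). Rod-like cells had 198 of 2053 higher (9.64%) and 55 lower (2.68%). Rod bipolar-like cells had 56 of 7602 higher (0.737%) and 2 lower (0.0263%), though they held the most UMIs, 2654869 over 20% in STZ and 1247030 in control. Müller glia-like cells had 174 of 7103 higher (2.45%) and 390 lower (5.49%).

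Where the counting interval of the ratio also had to exclude equality in both libraries, the counts were 847 and 144 for cone-like cells, 520 and 423 for cone bipolar-like cells, 142 and 22 for rod-like cells, 35 and 2 for rod bipolar-like cells and 71 and 62 for Müller glia-like cells. Under that rule the higher and lower genes of Müller glia-like cells were nearly equal in number. The excess of higher genes in rod-like cells was not kept with a mean over cells (127 higher and 133 lower), with each cell thinned to 500 UMIs (12 and 21) or among cells of at least 1000 UMIs (33 and 25). Thinned cone-like cells had 376 and 325, and thinned cone bipolar-like cells 168 and 288. The balance in Müller glia-like cells turned round with class assignment, at 284 and 232 with clusters at resolution 0.5 and 278 and 243 with the unnamed low-UMI cluster added. Scaling with the mitochondrial genes kept in the total turned most counts to lower, with 239 higher and 1283 lower in cone-like cells, 139 and 1229 in cone bipolar-like cells, 62 and 316 in rod-like cells, 5 and 83 in rod bipolar-like cells and 70 and 845 in Müller glia-like cells. A median-of-ratios scaling gave 620 and 412 in cone-like cells, 489 and 632 in cone bipolar-like cells and 259 and 297 in Müller glia-like cells, so the balance between higher and lower genes is relative to the scaling. The median log2 ratio of all measured genes was 0.11 in STZ and 0.14 in control cone-like cells, and between -0.07 and 0.07 in the other classes, to 2 decimals.

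The ranges did not hold the same clusters. Cluster 4, cone-like, had 92.9% of its 1083 cells over 20% and held 72.0% of the STZ and 85.5% of the control cone-like cells over 20%. Cone-like cells at 10 to 20% lay mostly in clusters 2 and 10, with 3.39% in STZ and 6.72% in control in cluster 4. Cluster 12, rod bipolar-like, had 84.5% of its 704 cells over 20% and held 31.2% of the STZ and 46.2% of the control rod bipolar-like cells over 20%, against cluster 0 with 86.4 and 91.3% of those at 10 to 20%. Without clusters 4 and 12 the cone-like counts were 77 higher and 79 lower of 7035 genes, and the rod bipolar-like counts were 13 and 6 of 7318. The marker gate, which uses no clusters, gave 765 and 110 for cones and 36 and 1 for rod bipolar cells. Within single clusters, cone-like cells over 20% had 59 genes higher and 90 lower of 5524 in cluster 2, 34 and 55 of 4063 in cluster 10 and 112 and 41 of 2418 in cluster 4, where 28 STZ and 41 control cells were at 10 to 20%. Rod bipolar-like cells had 8 and 7 of 7097 in cluster 0 and 56 and 43 of 1182 in cluster 12.

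Rod-like cells over 20% were mostly in cluster 3 (82.2% in STZ, 80.5% in control), while those at 10 to 20% were shared between clusters 3 (47.0 and 59.6%) and 7 (53.05 and 40.4%). Within cluster 3, 36 genes were higher and 32 lower of 848. Cone bipolar-like cells were spread over clusters 9, 11, 13, 15, 17 and 19 in both ranges. Müller glia-like cells over 20% were in cluster 8 in STZ (89.4%) and control (61.7%), while those at 10 to 20% were in cluster 8 for 56.0% in STZ and 9.36% in control, with clusters 5 and 6 for most of the rest.

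In photoreceptor-like and cone bipolar-like cells the direction of a gene's difference went with its span on the chromosome. Genes spanning over 200 kb had a median log2 ratio of 0.52 in STZ and 0.59 in control rod-like cells, 0.39 and 0.55 in cone-like cells, and 0.35 and 0.44 in cone bipolar-like cells. Genes of 5 kb or less had medians of -0.35 and -0.34 in rod-like, -0.27 and -0.41 in cone-like cells, and -0.45 and -0.64 in cone bipolar-like cells. In cone-like cells 87 of 347 genes over 200 kb were higher (25.1%), and 0 were lower. In cone bipolar-like cells 83 of 407 genes over 200 kb were higher (20.4%) and 196 of 669 genes of 5 kb or less were lower (29.3%). Rod bipolar-like cells had 0.08 and 0.09 for genes over 200 kb and -0.04 and -0.10 for those of 5 kb or less. Müller glia-like cells had -0.16 and -0.12 over 200 kb and 0.01 and 0.03 at 5 kb or less, so the medians ran over a narrower span in these classes and in opposite directions.

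Across genes, Spearman's rho between span and log2 ratio was 0.54 in STZ and 0.47 in control rod-like cells, 0.41 and 0.44 in cone-like cells, 0.46 and 0.45 in cone bipolar-like cells, 0.15 and 0.18 in rod bipolar-like and -0.02 and -0.04 in Müller glia-like cells. With the length of the spliced transcript in place of the span it was 0.63 and 0.53, 0.51 and 0.55, 0.57 and 0.56, 0.25 and 0.26, and 0.01 and -0.04 in the same order. Inside cone-like clusters, rho with span was 0.10 and 0.08 in cluster 2 and 0.10 and 0.11 in cluster 10. In cluster 4 it was 0.13 and 0.22. It was 0.51 and 0.52 in cone bipolar-like cluster 9 and 0.46 and 0.55 in rod-like cluster 3. Genes are not independent replicates, span and transcript length are themselves related, and the part of each was not tested.

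**Figure D3:**
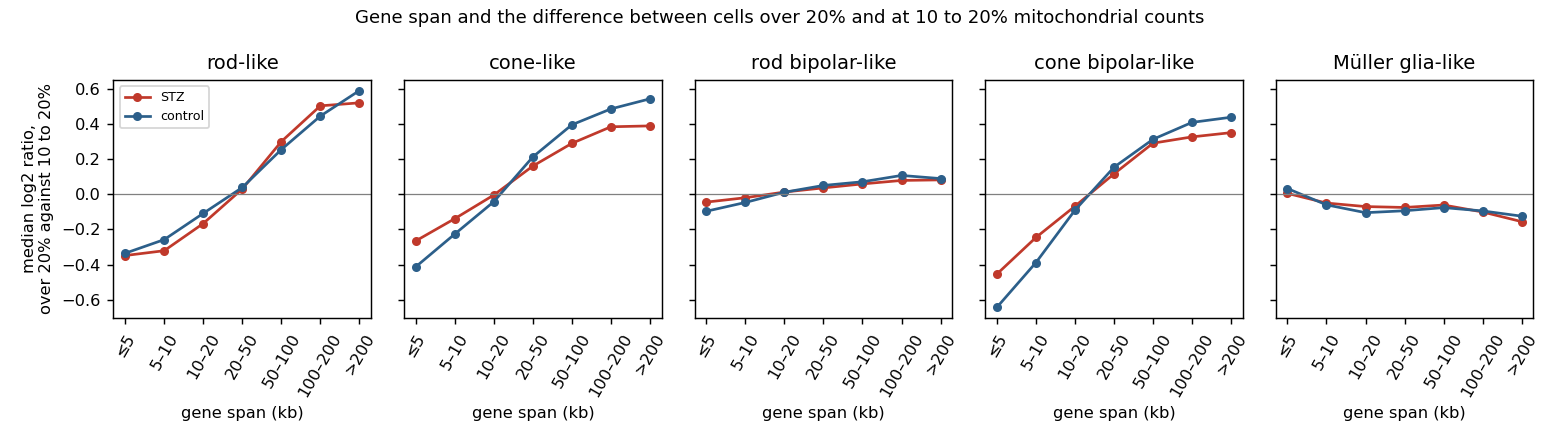
Median log2 ratio of cells over 20% against cells at 10 to 20% (y axis) for genes grouped by span (x axis, kb), in STZ and control cells of each class. The lines climb from short to long genes in rod-like, cone-like and cone bipolar-like cells (-0.45 to 0.35 in STZ cone bipolar-like cells) and stay near 0 in rod bipolar-like and Müller glia-like cells.

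Cone bipolar-like cells over 20% had lower levels of genes for protein synthesis and respiration. Over all measured genes of this class, 10.4% were higher and 8.27% lower. Of 79 cytosolic ribosomal protein genes, 0 were higher and 52 lower, with a median log2 ratio of -0.64 in STZ and -0.96 in control. Rpl10, a large-subunit protein, had 333 CPM over 20% against 615 at 10 to 20% in STZ (log2 ratio -0.89, -1.10 to -0.68) and 244 against 567 CPM in control (-1.22, -1.54 to -0.91). Rpl15 had 539 against 971 CPM in STZ (-0.85, -1.02 to -0.68) and 314 against 779 CPM in control (-1.31, -1.60 to -1.04). Both genes were lower over 20% in the 2 libraries, with a larger difference in control.

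Of 74 nuclear-encoded respiratory chain genes, 0 were higher and 46 lower in cone bipolar-like cells, with medians of -0.65 in STZ and -0.89 in control. Ndufb6, an accessory subunit of complex I, had 95.6 CPM over 20% against 188 at 10 to 20% in STZ (-0.98, -1.39 to -0.59) and 66.8 against 192 CPM in control (-1.52, -2.16 to -0.93). Cox6b1, a subunit of cytochrome c oxidase, had 331 against 621 CPM in STZ (-0.91, -1.12 to -0.70) and 231 against 572 CPM in control (-1.31, -1.64 to -0.99). Nuclear and mitochondrial transcripts of the same complexes thus differed in opposite directions as shares, the mitochondrial ones by the choice of cells. Of 54 mitochondrial ribosomal protein genes 23 were lower (medians -0.56 and -0.75), among them Mrpl41, with 77.4 against 155 CPM in STZ and 69.4 against 167 CPM in control. Of 24 genes for import and mitochondrial chaperones 7 were lower (-0.40 and -0.48), and of 30 proteasome and ubiquitin genes 10 were lower (-0.51 and -0.72).

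Of 19 genes of mitochondrial dynamics and mitophagy in cone bipolar-like cells, 3 were lower and 1 higher. Over all measured genes 8.27% were lower and 10.4% higher, so the 1 higher gene stood under the background share. Fis1, an outer-membrane fission adaptor, had 127 CPM over 20% against 271 at 10 to 20% in STZ (log2 ratio -1.09) and 139 against 215 CPM in control (-0.63). Bnip3, a mitophagy receptor, had log2 ratios of -0.81 and -0.97, and Park7, a redox-sensitive chaperone, -0.68 and -0.94. Rhot2, a GTPase of mitochondrial transport, was higher. Among the 14 antioxidant genes measured, 4 were lower, beside 8.27% of all measured genes. They were the mitochondrial thioredoxin Txn2, the peroxiredoxins Prdx2 and Prdx5 and the superoxide dismutase Sod1. Metallothionein genes, which bind zinc and copper, were lower for 2 of 3, beside the same 8.27%. Mt1 had 791 against 1285 CPM in STZ and 247 against 448 CPM in control. None of the 18 unfolded protein response genes passed 1.5-fold in both libraries.

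Glycolysis genes went both ways in cone bipolar-like cells, with 3 higher and 8 lower of 24, beside 10.4% higher and 8.27% lower over all measured genes, so the number higher was near the background. Gapdh had 2195 CPM over 20% against 3800 at 10 to 20% in STZ (-0.79, -0.87 to -0.71) and 1905 against 4296 CPM in control (-1.17, -1.29 to -1.06). Pfkp, the platelet-type phosphofructokinase, had 824 against 489 CPM in STZ (0.75, 0.60 to 0.90) and 1434 against 590 CPM in control (1.28, 1.12 to 1.44). The higher genes included Hk2, the inducible hexokinase, and Pdk1, which restrains pyruvate dehydrogenase.

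All 5 long noncoding RNAs measured from the list of nuclear and long noncoding RNAs were higher in cone bipolar-like cells over 20%, with medians of 0.72 and 0.98. Malat1, which stays in nuclear speckles, had 65951 CPM over 20% against 40073 at 10 to 20% in STZ (0.72, 0.70 to 0.74) and 84673 against 46590 CPM in control (0.86, 0.84 to 0.88). Gm26917 had 115 against 58.4 CPM in STZ and 170 against 54.6 CPM in control. Over all noncoding genes measured in this class, 24 of 89 were higher (27.0%). Of 20 genes of RNA splicing and cold response, 3 were higher (medians 0.38 and 0.46), beside 10.4% of all measured genes. They were the splicing-factor kinases Clk1 and Clk4 and the speckle protein Son. Clk4 had 222 against 114 CPM in STZ and 231 against 108 CPM in control.

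Among all genes of cone bipolar-like cells, those with the largest differences in both libraries were Igfn1, Amy1, Sec1 and Adam11 (higher) and Txnl4a, Cabp2, Psmg4 and Hsbp1l1 (lower). Igfn1 (mm10 chr1:135953578-136006342, minus strand) had 168 CPM over 20% against 39.99 at 10 to 20% in STZ (2.07, 1.68 to 2.46) and 301 against 70.8 CPM in control (2.09, 1.68 to 2.497). Igfn1 is one of the markers used to name clusters, and Igfn1 and Sec1 were among the leading genes of cluster 15, so both are descriptions; that cluster held 16.2% of STZ cone bipolar-like cells over 20% against 9.94% at 10 to 20%, and 22.3 against 12.5% in control. Cabp2 (chr19:4081578-4087340, plus strand), a calcium-binding protein of retinal interneurons, had 70.8 against 169 CPM in STZ (-1.25, -1.74 to -0.80) and 69.4 against 215 CPM in control (-1.63, -2.26 to -1.06). Txnl4a, a component of the spliceosome, had 18.1 against 51.6 CPM in STZ and 18.0 against 75.4 CPM in control. Psmg4, a proteasome assembly chaperone, had 36.2 against 84.8 CPM in STZ and 28.3 against 76.2 CPM in control.

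The difference was also present inside single cone bipolar-like clusters. Ribosomal protein genes had medians of -0.69 in STZ and -1.02 in control in cluster 9, -0.33 and -0.72 in cluster 11, -0.82 and -1.12 in cluster 13 and -0.96 and -1.25 in cluster 15. Respiratory chain genes had -0.71 and -0.99, -0.32 and -0.66, -0.74 and -1.03, and -1.13 and -1.11 in those clusters. In cluster 9, 237 genes were higher and 363 lower of 2509 measured.

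Taken over all their clusters, cone-like cells over 20% had the same direction for respiration, with smaller differences for ribosomes. Of 74 nuclear respiratory chain genes, 0 were higher and 11 lower (medians -0.42 in STZ and -0.69 in control). Atp5g1, subunit c of ATP synthase, had 772 CPM over 20% against 1341 at 10 to 20% in STZ (-0.80, -0.90 to -0.69) and 557 against 1057 CPM in control (-0.92, -1.07 to -0.78). Uqcr10, a complex III subunit, had 296 against 496 CPM in STZ and 252 against 481 CPM in control. Of 79 ribosomal protein genes only Rpl15 was lower at 1.5-fold in both libraries, and the list medians were -0.29 and -0.43. Inside single cone-like clusters both lists differed less. Respiratory chain medians were -0.03 in STZ and -0.12 in control in cluster 2, and -0.02 and -0.19 in cluster 10. In cluster 4 they were -0.27 and -0.24. Ribosomal medians were 0.04 and 0.12, -0.04 and -0.04, and -0.17 and -0.14 in the same clusters. Of 57 mitochondrial ribosomal protein genes 1 was higher and 5 lower (medians -0.33 and -0.59), beside 12.4% and 2.37% of all measured genes. Mrps21 had 113 against 201 CPM in STZ and 77.6 against 184 CPM in control.

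Cone genes themselves differed unequally. Pde6h, the inhibitory subunit of the cone phosphodiesterase, had 9139 CPM over 20% against 14949 at 10 to 20% in STZ (-0.71, -0.74 to -0.68) and 8460 against 18183 CPM in control (-1.10, -1.14 to -1.07). Gngt2, the cone transducin gamma subunit, had 3986 against 6821 CPM in STZ (-0.78) and 3545 against 7718 CPM in control (-1.12). Arr3, cone arrestin, had 3721 against 4000 CPM in STZ (-0.10) and 5424 against 4355 CPM in control (0.32). The medium-wave opsin Opn1mw had 5924 against 8174 CPM in STZ and 4664 against 7384 CPM in control, while the short-wave opsin Opn1sw had 6132 against 5455 and 6612 against 6815 CPM. Both subunit genes were lower, while cone arrestin and the short-wave opsin had opposite signs in the 2 libraries. Of the 14 cone phototransduction genes measured, 2 were higher, Gucy2e and Grk1, and 2 lower. Over all measured genes 12.4% were higher and 2.37% lower, so the number higher was near the background.

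The nuclear RNAs Meg3, Gm26917 and Kcnq1ot1 were higher in cone-like cells, 3 of 4 measured. Meg3 had 72.2 CPM over 20% against 26.5 at 10 to 20% in STZ (1.45, 0.99 to 1.90) and 57.3 against 12.1 CPM in control (2.25, 1.59 to 2.93). Malat1 had log2 ratios of 0.49 and 0.67, of which the STZ one was under 1.5-fold. Son had 1397 against 877 CPM in STZ (0.67, 0.58 to 0.76) and 1732 against 916 CPM in control (0.92, 0.83 to 1.01), and with Srsf6, Clk1 and Luc7l3 it made 4 of 20 splicing genes higher, beside 12.4% of all measured genes. Polg, the mitochondrial DNA polymerase, Pnpt1, a mitochondrial RNA exonuclease, and Nrf1, a regulator of nuclear genes for mitochondria, were the 3 of 16 genes of mitochondrial genome upkeep that were higher, beside 12.4% of all measured genes. Of 10 immediate-early genes 0 passed 1.5-fold in both libraries, beside 12.4% higher and 2.37% lower of all measured genes.

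The largest differences among all genes in cone-like cells were higher Amy1, Myo9b, Atp13a1 and Slc9a5 and lower Nefh, Mrpl39, Ccl9 and Mzt2. Amy1 (chr3:113555710-113606699, minus strand), a secreted amylase with near-identical neighbours among which reads may be split, had 111 CPM over 20% against 36.9 at 10 to 20% in STZ (1.60, 1.22 to 1.97) and 167 against 38.6 CPM in control (2.11, 1.74 to 2.49). Myo9b (chr8:71272714-71360713, plus strand), an unconventional myosin, had 30.3 against 9.44 CPM in STZ and 33.4 against 8.15 CPM in control. Slc9a5, a sodium-proton exchanger, had 29.4 against 9.44 CPM in STZ and 58.5 against 14.2 CPM in control. Ccl9, a chemokine, had 46.4 against 95.6 CPM in STZ and 27.5 against 98.2 CPM in control. Ccl9 was among the leading genes of cluster 10, so its difference is a description. That cluster held 10.9% of STZ cone-like cells over 20% against 34.3% at 10 to 20%, and 5.55 against 38.5% in control. Nefh, the heavy neurofilament, had 14.3 against 36.2 CPM in STZ and 11.9 against 26.9 CPM in control.

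Rod-like cells over 20% had list medians below 0 for ribosomal protein genes (-0.35 in STZ and -0.44 in control, with Rpl15 past 1.5-fold of 79) and respiratory chain genes (-0.43 and -0.32, 4 lower and 0 higher of 71). Over all measured genes 9.64% were higher and 2.68% lower. Splicing genes had medians of 0.51 and 0.42, with 4 of 19 higher, Luc7l2, Luc7l3, Tra2a and Pnisr, beside 9.64% of all measured genes. Luc7l2, a U1 snRNP-associated protein, had 361 CPM over 20% against 173 at 10 to 20% in STZ (1.06) and 329 against 203 CPM in control (0.70). Kcnq1ot1 had 285 against 137 CPM in STZ and 304 against 117 CPM in control.

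Rod phototransduction genes had medians of -0.18 and -0.17 in rod-like cells. The calcium sensor recoverin (Rcvrn) was the 1 of 22 lower at 1.5-fold, beside 2.68% of all measured genes. Gnat1, the rod transducin alpha subunit, had 4999 CPM over 20% against 6269 at 10 to 20% in STZ (-0.33) and 6758 against 7697 CPM in control (-0.19). Gngt1, its gamma subunit, had 8584 against 13440 CPM in STZ (-0.65) and 12209 against 17937 CPM in control (-0.56). Gapdh had 2991 against 4883 CPM in STZ and 3626 against 5541 CPM in control, and Hk2, the hexokinase of photoreceptors, was on the other side, with log2 ratios of 0.67 and 0.69.

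Of all rod-like genes, the largest differences were higher Srek1, Dnmt3a, Akap8l and Madd and lower Pdrg1, Cebpzos, Hmgn2 and Mrpl34. Srek1 (chr13:103739348-103774608, minus strand), a splicing regulator, had 168 CPM over 20% against 59.1 at 10 to 20% in STZ (1.51, 0.86 to 2.15) and 271 against 53.3 CPM in control (2.35, 1.55 to 3.16). Dnmt3a, a DNA methyltransferase, had 188 against 73.9 CPM in STZ and 206 against 85.3 CPM in control. Hmgn2, a nucleosome-binding protein, had 305 against 562 CPM in STZ (-0.88, -1.25 to -0.53) and 321 against 593 CPM in control (-0.89, -1.41 to -0.40). Pdrg1 had 48.1 against 96.7 CPM in STZ and 32.9 against 102 CPM in control.

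Summed over all cells over 20%, rod bipolar-like cells had few genes past 1.5-fold against those at 10 to 20%. Of 7602 measured genes 56 were higher (0.737%) and 2 lower (0.0263%). A mean over cells gave 247 and 13, and cells above 40% had 1021 higher and 771 lower of 6603. Rod phototransduction genes had medians of 0.32 in STZ and 0.61 in control, and cone phototransduction genes 0.33 and 0.64. The Müller glia homeostasis list had 0.22 and 0.48. Ribosomal protein genes had medians of -0.04 in STZ and -0.11 in control, and respiratory chain genes -0.10 and -0.20, with 0 of 74 past 1.5-fold. The ON bipolar cascade, which turns glutamate release from rods into a light response, had medians of 0.05 and -0.00 and 0 of 13 genes past 1.5-fold. Beside 0.737% higher and 0.0263% lower of all measured genes, 0 in either list was near the background. Prkca, the protein kinase that marks these cells, had 2990 CPM over 20% against 2944 at 10 to 20% in STZ (0.02) and 2432 against 2534 CPM in control (-0.06). Trpm1, the cation channel of the cascade, had 3668 against 3334 CPM in STZ (0.14) and 5604 against 5208 CPM in control (0.11).

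Among the genes with the largest differences in rod bipolar-like cells, those described here were at low levels. Myo9b had 16.2 CPM over 20% against 8.05 at 10 to 20% in STZ and 20.8 against 11.1 CPM in control. Erc2, an active-zone scaffold, had 23.4 against 12.4 CPM in STZ and 22.5 against 12.3 CPM in control. Signs turned for Erc2 in control thinned to 500 UMIs (-0.83) and for Myo9b in STZ against cells under 10% (-0.24). The 2 lower genes were Usp39, a splicing factor, at 13.9 against 23.4 CPM in STZ and 10.4 against 21.9 CPM in control, and Srm, spermidine synthase, at 26.0 against 39.9 and 19.2 against 36.2 CPM.

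Müller glia-like cells over 20% had positive list medians for protein synthesis. Ribosomal protein genes had medians of 0.49 in STZ and 0.53 in control, with 4 of 79 higher at 1.5-fold and 0 lower, and respiratory chain genes had 0.23 and 0.18 with 0 of 74 past 1.5-fold. Over all measured genes 2.45% were higher and 5.49% lower. Rps12 had 1896 CPM over 20% against 1198 at 10 to 20% in STZ and 1949 against 1230 CPM in control, a log2 ratio of 0.66 in each. Malat1 had 32332 against 59875 CPM in STZ (-0.89) and 62598 against 87023 CPM in control (-0.48). Neat1, the RNA of paraspeckles, had 57.5 against 112 CPM in STZ and 17.3 against 88.8 CPM in control. Of the 5 nuclear noncoding RNAs measured, Neat1 alone was lower at 1.5-fold in both libraries, and the list medians were -0.21 and -0.30.

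Immediate-early genes, which are switched on within minutes of a stimulus and also during dissociation, had medians of -0.66 and -0.67 in Müller glia-like cells, with 9 of 20 lower and 0 higher. Junb had 980 CPM over 20% against 1675 at 10 to 20% in STZ (-0.77, -0.95 to -0.60) and 1102 against 1859 CPM in control (-0.75, -0.97 to -0.55). Dusp1, a phosphatase of MAP kinases, had 377 against 721 CPM in STZ (-0.94) and 571 against 1059 CPM in control (-0.89). Klf6 had 57.5 against 153 CPM in STZ (-1.42, -2.24 to -0.70) and 150 against 298 CPM in control (-0.99, -1.61 to -0.43). Within cluster 8 alone the list medians were -0.73 in STZ and -1.07 in control, and ribosomal protein genes stood at 0.63 and 0.53. Against Müller glia-like cells under 10%, the immediate-early median in control was 0.17, the opposite sign. In the unnamed cluster 16, with 11 leading Müller glia markers, 54 STZ and 52 control cells were over 20%. There the immediate-early medians were positive over 8 genes, at 0.82 and 1.29, and the ribosomal ones were -0.01 and 0.08. Cluster 5, with Fosb, Jun and Ier2 among its leading genes, held 22.2% of control Müller glia-like cells over 20% and 65.2% at 10 to 20%. In STZ it held 5.96 and 30.5%.

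The Müller glia homeostasis list had medians of -0.36 and -0.21 in Müller glia-like cells, with 2 of 21 lower, beside 5.49% of all measured genes. Slc1a3, the glial glutamate transporter, had 700 CPM over 20% against 1237 at 10 to 20% in STZ (-0.82) and 825 against 1266 CPM in control (-0.62). Glul, glutamine synthetase, had 11053 against 12042 CPM in STZ (-0.12) and 11235 against 11902 CPM in control (-0.08). Among the genes with the largest differences were higher Crcp, Smg1 and Gmfb and lower Trnt1, Nsmce3, Klf13 and Arl4c. Smg1 (chr7:118131308-118243670, minus strand), a kinase of nonsense-mediated decay, had 75.4 against 36.0 CPM in STZ (1.07, 0.31 to 1.76) and 86.5 against 41.7 CPM in control (1.05, 0.17 to 1.83). Klf13 had 43.1 against 115 CPM in STZ and 23.1 against 62.0 CPM in control. Trnt1 and Nsmce3 each rested on 1 UMI in control cells over 20%.

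**Figure D4:**
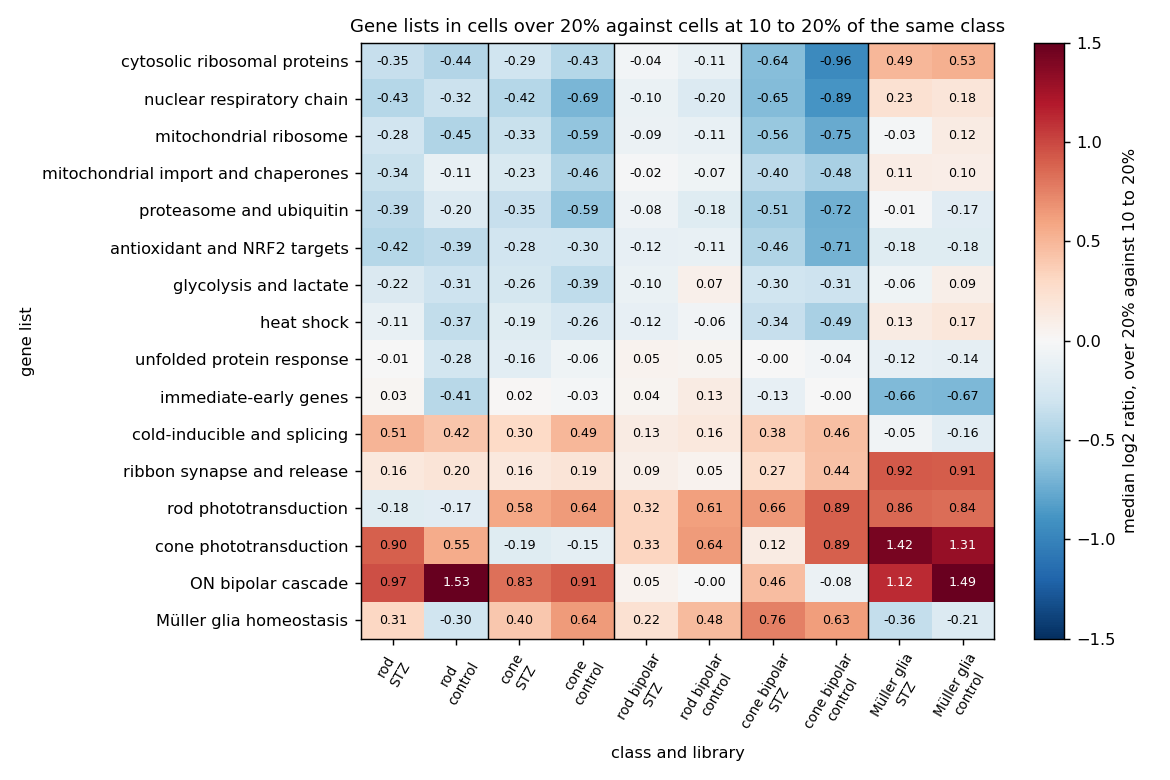
Median log2 ratio of cells over 20% against cells at 10 to 20% for 16 gene lists (rows), in each class and library (columns); red is higher over 20% and blue lower. Cone bipolar-like cells are lowest for ribosomal proteins (-0.64 in STZ and -0.96 in control) and respiratory chain genes. Rod bipolar-like cells have smaller values for these lists and positive ones for rod phototransduction (0.32 in STZ and 0.61 in control). Müller glia-like cells are higher for ribosomal proteins and lower for immediate-early genes.

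The defining markers of a cell's own class took a smaller share over 20% in every class, and markers of other classes more often a larger one. Of 70 pairs of a class and another cell type's marker list, the summed level was higher over 20% in both libraries for 44 and lower in both for 8. A difference of any size was counted with no minimum of UMIs, and some pairs rest on few. Astrocyte markers in cone-like cells had 3 UMIs over 20% against 4 at 10 to 20% in STZ, and 1 against 1 in control. Marker genes named the clusters, so their levels are descriptions. The summed level of the 10 cone markers in cone-like cells was 34838 CPM over 20% against 46439 at 10 to 20% in STZ and 34475 against 50952 CPM in control. The 11 rod markers in rod-like cells had 39033 against 50236 and 46969 against 57670 CPM. The 7 rod bipolar markers in rod bipolar-like cells had 33389 against 34498 and 30572 against 33901 CPM, the 14 cone bipolar markers in cone bipolar-like cells 2666 against 3582 and 2629 against 3948 CPM, and the 12 Müller glia markers in Müller glia-like cells 40490 against 48555 and 47869 against 52196 CPM.

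Of markers foreign to the class, rod markers in Müller glia-like cells summed to 4772 CPM over 20% against 2903 at 10 to 20% in STZ and 2497 against 1402 CPM in control. Cone markers there summed to 3243 against 1172 and 1021 against 433 CPM. Rod bipolar markers in cone-like cells had 991 against 501 and 891 against 442 CPM, while rod markers there were nearly level, at 11465 against 11219 and 14182 against 14664 CPM. Of the 11 rod markers 0 were at 0 in Müller glia-like cells, and of the 10 cone markers 1 was at 0 in the control ones over 20%. Leukocyte markers, 4 in all, summed to at most 7.18 CPM in every class and range, and all 4 were at 0 in cone bipolar-like cells over 20%. These sums moved with the lists of other cell types, and their part in the results was not tested.

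Beside those values, all 10 cone phototransduction genes measured in Müller glia-like cells were higher over 20% (medians 1.42 and 1.31), as were 15 of 21 rod phototransduction genes (0.86 and 0.84) and 9 of 16 ribbon synapse genes (0.92 and 0.91). Arr3 had 345 CPM over 20% against 117 at 10 to 20% in STZ and 173 against 54.1 CPM in control. In cone-like cells 10 of 21 rod phototransduction genes (0.58 and 0.64), 5 of 9 ON cascade genes (0.83 and 0.91) and 4 of 10 Müller glia genes (0.40 and 0.64) were higher. The summed levels of the first lists went the other way, at 25472 CPM over 20% against 28615 at 10 to 20% in STZ and 26700 against 32512 CPM in control for rod phototransduction, and 4856 against 5060 and 4293 against 4381 CPM for the ON cascade. Apoe, a lipid carrier of glia, had 306 against 158 CPM in STZ and 380 against 138 CPM in control cone-like cells. In cone bipolar-like cells 12 of 21 rod phototransduction genes (0.66 and 0.89) and 5 of 10 Müller glia genes (0.76 and 0.63) were higher. In rod-like cells all 5 ON cascade genes were higher (0.97 and 1.53), with Trpm1 at 184 against 47.0 CPM in STZ and 255 against 59.7 CPM in control. The shares higher over all measured genes were 2.45% in Müller glia-like, 12.4% in cone-like, 10.4% in cone bipolar-like and 9.64% in rod-like cells.

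Dividing the cells over 20% further showed where the differences began. These ranges, and the values within single clusters, were added after values had been seen. Rod bipolar-like cells at 20 to 30% had 6 genes higher and 9 lower of 7227 than those at 10 to 20%, with ribosomal medians of 0.05 in STZ and 0.03 in control. At 30 to 40% they had 331 higher and 191 lower of 6526, and above 40% 1021 higher and 771 lower of 6603. Their respiratory chain medians were 0.02 and -0.03 at 20 to 30%, -0.38 and -0.47 at 30 to 40%, and -1.03 and -0.96 above 40%. Genes over 100 kb had -0.03 and -0.03, 0.23 and 0.20, and 0.51 and 0.38 in the same ranges.

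The rod bipolar-like cells at 20 to 30% had medians of 3452 other UMIs and 1041 mitochondrial UMIs in STZ and 3431 and 1063 in control. Above 40% they had 1029 and 1073 in STZ and 885 and 1091 in control, so the mitochondrial count was almost level while the other counts were lower. The lowest range held 631 of the 1036 STZ and 263 of the 589 control rod bipolar-like cells over 20%. Rod bipolar-like cells at 20 to 30% thus had few differences, and those above 40% had the same direction as cone bipolar-like and cone-like cells.

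Cone-like cells had 163 genes higher and 65 lower of 7245 at 20 to 30%, 1310 and 827 of 7115 at 30 to 40%, and 1513 and 1083 of 7079 above 40%. Their respiratory chain medians were -0.14 in STZ and -0.35 in control, then -0.87 and -1.05, then -1.08 and -1.21. Cone bipolar-like cells already had 332 higher and 274 lower of 5711 at 20 to 30%, with respiratory chain medians of -0.52 and -0.79, and 727 and 880 of 5279 at 30 to 40%, with -0.91 and -1.19. Above 40% they had 806 and 609 of 5075, with -0.96 and -0.86, from 62 STZ and 35 control cells. Rod-like cells were too few to compare at 30 to 40% or above 40%. With all rod-like cells over 30% in a single range, 157 genes were higher and 135 lower of 1654. Müller glia-like cells above 30% were too few to compare.

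**Figure D5:**
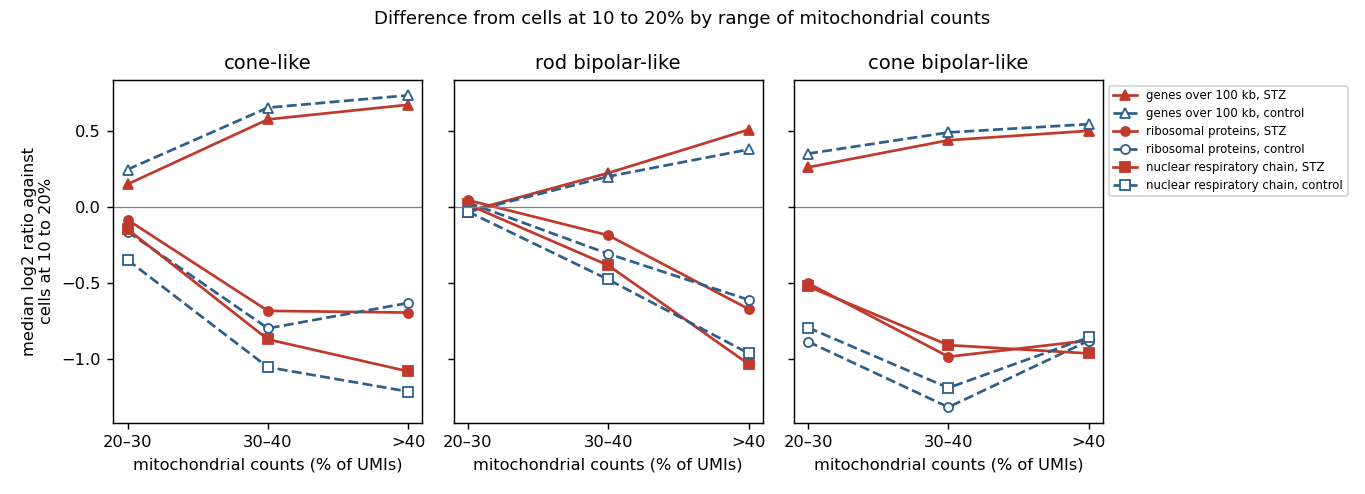
Median log2 ratio against cells at 10 to 20% of the same class (y axis) for genes over 100 kb, ribosomal proteins and nuclear respiratory chain genes, by range of mitochondrial counts (x axis, % of UMIs), in STZ and control cells. Rod bipolar-like cells start at 0.02 for respiratory chain genes at 20 to 30% in STZ and reach -1.03 above 40%, where cone-like cells stand at -1.08.

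Few genes differed in every class. Of 1843 genes measured in all 5 classes, 102 (5.53%) were higher over 20% and 83 (4.50%) lower in all 10 pairs of class and library, and 0 passed 1.5-fold in all 10. The genes named here had the largest differences in the pair where each differed least. Grk1 (chr8:13405081-13421951, plus strand), the kinase that quenches the activated visual pigment, had log2 ratios of 0.47 to 1.21. Prom1 (chr5:43993620-44102032, minus strand), which shapes outer segment discs, had 0.45 to 1.93. Rpgrip1 (chr14:52110704-52163546, plus strand), a scaffold of the photoreceptor connecting cilium, had 0.44 to 1.24. Rpgrip1 was among the leading genes of cluster 4, where most cone-like cells over 20% lay, so its difference in that class is a description.

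Madd (chr2:91137360-91183837, minus strand), which activates Rab3 in vesicle release, had log2 ratios of 0.44 to 1.34, Rhot2 (chr17:25838457-25844851, minus strand) had 0.42 to 1.44, and Crocc (chr4:141016637-141060550, minus strand), the ciliary rootlet protein, had 0.34 to 1.65. Some of these signs turned in Müller glia-like cells, where Crocc in STZ was -0.20 thinned to 500 UMIs, -0.10 as a mean over cells and -0.31 at 20 to 25% against 15 to 20%. There Prom1 in STZ was -1.37 thinned and -0.13 at 20 to 25%, and Madd was -0.084 as a mean over cells in STZ and -1.04 at 20 to 25% in control. In cone bipolar-like cells at 20 to 25%, Prom1 was -0.46, Rhot2 -0.12 and Crocc -0.44 in STZ and Grk1 -0.15 in control. Rhot2 had 184 CPM over 20% against 101 at 10 to 20% in STZ and 261 against 96.4 CPM in control cone-like cells. The lower genes were Aurkaip1, a mitochondrial ribosomal protein (-1.33 to -0.21), Atp6v1g1, a subunit of the vacuolar proton pump (-1.32 to -0.19), and Erg28, of sterol synthesis (-1.05 to -0.17). H3f3b, histone H3.3, had -0.84 to -0.15 and Actb, beta-actin, -0.85 to -0.13.

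Between the libraries, cells over 20% of the STZ retinas differed from those of control retinas by 1.5-fold, with no check by a further library. In rod bipolar-like cells 589 of 7973 measured genes were higher in STZ (7.39%) and 502 lower (6.3%). In cone-like cells it was 418 higher (6.48%) and 394 lower (6.1%) of 6454, in cone bipolar-like cells 395 (8.92%) and 359 (8.11%) of 4427, in Müller glia-like cells 214 (13.4%) and 121 (7.55%) of 1602, and in rod-like cells 122 (8.92%) and 88 (6.44%) of 1367. Of these genes, 215 higher and 180 lower also passed 1.5-fold in rod bipolar-like cells at 10 to 20%, and 117 and 60 in cone-like cells. In cone bipolar-like cells 57 and 74 did, in Müller glia-like cells 89 and 21, and in rod-like cells 22 and 14. Of all genes measured at 10 to 20%, 1105 of 8311 passed 1.5-fold in rod bipolar-like cells and 823 of 8393 in cone-like cells. It was 1128 of 8805 in cone bipolar-like, 1366 of 9149 in Müller glia-like and 486 of 3775 in rod-like cells. Whether the overlaps exceed these shares was not tested. In Müller glia-like cells over 20%, all 13 rod and 9 cone phototransduction genes measured were higher in STZ (medians 0.95 and 1.70), beside 13.4% of all measured genes. At 10 to 20% the list medians were 1.10 and 1.39. Cluster 8 held 89.4% of these cells over 20% in STZ and 61.7% in control. Of those at 10 to 20% it held 56.0 and 9.36%. The part of cluster makeup in the counts was not tested.

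Metallothionein genes had positive list medians in STZ over control, both over 20% and at 10 to 20%. Mt1 had 2481 CPM in STZ and 773 CPM in control Müller glia-like cells over 20% (log2 ratio 1.68), and 1889 and 731 CPM in rod bipolar-like cells (1.37). The list medians were 1.68 over 20% and 1.71 at 10 to 20% in Müller glia-like cells and 1.35 and 1.74 in cone-like cells. Of 20 unfolded protein response genes, 9 were lower in STZ in cone-like cells, beside 6.1% of all measured genes (median -0.43 over 20%, -0.40 at 10 to 20%). In rod bipolar-like cells 6 of 20 were lower, beside 6.3% (-0.41 and -0.39). In Müller glia-like and rod-like cells 1 of 5 and 1 of 4 measured were lower, beside 7.55 and 6.44%. Ribosomal protein genes of cone bipolar-like cells had a median of 0.57 over 20%, with 36 of 79 higher in STZ, and 0.21 at 10 to 20%.

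In cone-like cells over 20%, Selenbp1, a selenium-binding protein with a near-identical copy among which reads may be split, had 83.8 CPM in STZ and 4.77 CPM in control (4.13, 2.73 to 6.04), and its log2 ratio at 10 to 20% was 3.97. Drd4, the dopamine receptor of photoreceptors, had 612 CPM in STZ and 152 CPM in control (2.01, and 2.09 at 10 to 20%). Both differences were of similar size in both ranges.

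Rbm3, a cold-inducible RNA-binding protein, had 435 CPM in STZ and 102 CPM in control rod bipolar-like cells over 20% (2.09, and 1.95 at 10 to 20%). Its relative Cirbp had 908 and 267 CPM in cone bipolar-like cells (1.76 and 1.65) and 722 and 236 CPM in Müller glia-like cells (1.61 and 1.47). Other genes differed more over 20% than at 10 to 20%. Manf, a secreted factor of the endoplasmic reticulum, had 31.3 CPM in STZ and 126 CPM in control cone bipolar-like cells over 20% (-2.01, and -0.87 at 10 to 20%). Cited2, a transcriptional co-regulator, had 165 and 63.4 CPM in Müller glia-like cells (1.38, and -0.32 at 10 to 20%). Pafah1b2 had 188 and 57.6 CPM in rod-like cells (1.71, and 0.22 at 10 to 20%). The difference between the ranges was not tested for any of these genes.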

How the data were processed

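The submitters' processing notes name Cell Ranger 3.0.1, Seurat 3.0 and build mm10. The values used are the raw UMI counts deposited by the authors, one column per cell, with the library given by the ending of the column name; 0 columns belonged to no sample. No cell was left out and doublets were kept. A score from simulated doublets marked 1640 cells (8.38%), among them 427 of those over 20% (7.94%), and an alternative removed them. Clusters were made without the mitochondrial genes from 2000 variable genes, 30 components and 15 neighbours with Leiden at resolution 1.0 (29 clusters). A cluster was named from at least 3 leading markers of a fixed list; one with low UMIs stayed unnamed. Gene spans come from the GENCODE annotation of mm10 and matched 99.2 to 99.6% of measured genes.

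Counts were summed per class, library and range, and intervals of ratios are conditional binomial (Clopper-Pearson), with a sum of 0 set to 3 counts. Shares have Clopper-Pearson intervals. Summed UMIs outside the mitochondrial genes ranged from 121633 (control rod-like cells over 20%) to 3283366 (STZ cone-like cells at 10 to 20%), so ratios are least precise in rod-like and Müller glia-like cells. The genes named were those past 1.5-fold in both libraries with the largest smaller difference, 4 in each direction per class, with the leading members of each list and the leading genes across classes; rod bipolar-like cells had only 2 lower genes. Members, lists and tests were chosen with earlier results of these data known. The ratios, intervals and 1.5-fold counts of cells over 20% against 10 to 20% were tested on simulated sums with known changes. These sums had counting error only, with no variation between cells. Class naming, the marker gate, thinning, list medians and STZ over control had no such test. Alternatives changed the limits, scaling, filters, class assignment, doublets and depth. Some genes are not reported here. Software was Python 3.11.15, numpy 2.4.6, pandas 2.3.3, scipy 1.17.1, scikit-learn 1.9.0, igraph 0.11.9 and leidenalg 0.10.2.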

Additional observations from a re-analysis of the deposited data

Results flagged for a closer look

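In cells over 20% against cells at 10 to 20% of the same class, 2 gene lists with opposite directions in STZ and control were flagged. The Müller glia homeostasis list in rod-like cells had a median log2 ratio of 0.31 in STZ and -0.30 in control. The list of mitochondrial genome upkeep and transcription in cone bipolar-like cells had a median of 0.22 in STZ and -0.46 in control. Other lists had opposite signs too. The ON bipolar cascade in cone bipolar-like cells had 0.46 in STZ and -0.08 in control. Mitochondrial genome upkeep and transcription in rod-like cells had -0.33 and 0.14. With 1 library per group, the difference between the libraries was not tested for any list.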

How the results depend on the processing

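The limits are 1 library per group, no replicate check and shallow sums in rod-like and Müller glia-like cells. No paired analysis was possible because each group has 1 library and its label gives no number shared between them. Removing doublet-like cells, clustering at resolution 2.0 and leaving out shared barcodes were run for the counts over 20% against 10 to 20% and left each within 1.5-fold of its value, though with doublet-like cells removed 25 of the 56 higher and 0 of the 2 lower rod bipolar-like genes were shared; these were not run for STZ over control. Counts are given as genes higher and lower over 20%. With 20 to 25% against 15 to 20% they were 23 and 6 in rod-like, 18 and 14 in cone-like, 1 and 4 in rod bipolar-like cells, 16 and 19 in cone bipolar-like and 6 and 20 in Müller glia-like cells. With only cells of at least 1000 UMIs they were 33 and 25 in rod-like, 561 and 88 in cone-like and 32 and 4 in rod bipolar-like cells, 306 lower in cone bipolar-like cells, and, STZ over control, 56 and 54 in rod-like cells. That limit gave shares over 20% in STZ and control of 10.1 and 6.96% for rod-like, 33.8 and 31.5% for cone-like, 52.1 and 32.4% for rod bipolar-like, 13.8 and 14.0% for cone bipolar-like cells, 8.74% for STZ Müller glia-like cells, and 24.2 and 18.8% for all cells. Against cells under 10% they were 131 lower in rod-like, 615 higher in cone-like, 100 and 15 in rod bipolar-like cells and 323 higher in Müller glia-like cells. With intervals that exclude equality they were 22 lower in rod-like, 35 higher in rod bipolar-like, 71 and 62 in Müller glia-like cells and, STZ over control, 61 and 56 in rod-like cells. Adding the unnamed low-UMI cluster to Müller glia gave 278 and 243, with 8.99% over 20% in control. The marker gate gave 110 lower in cones, 36 and 1 in rod bipolar cells, 323 and 287 in cone bipolar cells and 199 lower in Müller glia, with shares in STZ and control of 25.6 and 19.6% for rods, 37.7 and 38.6% for cones, 13.5 and 11.8% for cone bipolar cells, 17.9 and 10.2% for Müller glia, and 49.8% for STZ rod bipolar cells. A mean over cells gave 127 and 133 in rod-like, 642 lower in cone-like and 247 and 13 in rod bipolar-like cells. Median-of-ratios scaling gave 620 and 412 in cone-like cells and 4 lower in rod bipolar-like cells. With no filter on low counts they were 2929 and 276 in rod-like, 3041 and 316 in cone-like, 962 and 104 in rod bipolar-like cells, 3199 higher in cone bipolar-like and 3718 higher in Müller glia-like cells. With cells over 30% they were 135 lower in rod-like, 1597 and 994 in cone-like, 753 and 391 in rod bipolar-like cells, and 912 lower in cone bipolar-like cells. Resolution 0.5 gave 284 and 232 in Müller glia-like cells, with 19.1% over 20% in STZ and 10.1% in control. Scaling with the mitochondrial genes gave 62 and 316 in rod-like, 239 and 1283 in cone-like, 5 and 83 in rod bipolar-like cells, 139 and 1229 in cone bipolar-like and 70 and 845 in Müller glia-like cells. Thinned to 500 UMIs per cell they were 12 and 21 in rod-like, 376 and 325 in cone-like cells, 13 lower in rod bipolar-like cells, 168 and 288 in cone bipolar-like and 29 and 64 in Müller glia-like cells; STZ over control they were 38 and 25, 201 and 184, 283 and 229, 131 and 121, and 64 and 32 in the same order of classes. Without clusters 4 and 12 they were 77 and 79 in cone-like and 13 and 6 in rod bipolar-like cells, with 186 lower in STZ than in control cone-like cells.

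Some log2 ratios turned sign. With 20 to 25% against 15 to 20%, Pdrg1 was 0.0091 in STZ rod-like cells, the ON bipolar cascade list -0.0032 in STZ and -0.068 in control cone-like cells and Amy1 -0.16 in control cone-like cells. In cone bipolar-like cells Adam11 was -0.63 and Grk1 -0.15 in control, and Prom1 -0.46, Rhot2 -0.12 and Crocc -0.44 in STZ. In Müller glia-like cells Arl4c was 0.56, Prom1 -0.13 and Crocc -0.31 in STZ, and Madd -1.04 in control. Against cells under 10%, Myo9b was -0.24 in STZ rod bipolar-like cells, and the immediate-early list 0.17 in control Müller glia-like cells. With a mean over cells Madd was -0.084 and Crocc -0.10 in STZ Müller glia-like cells, and with cells over 30% Aurkaip1 was 0.12 in control rod-like cells. Thinned to 500 UMIs, Erc2 was -0.83 in control rod bipolar-like cells, and in Müller glia-like cells Trnt1 was 1.12 and Nsmce3 0.63 in control and Prom1 -1.37 and Crocc -0.20 in STZ. Without clusters 4 and 12 the ON bipolar cascade list was -0.00041 in control cone-like cells. The cause was not tested.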
